A study of Mus musculus with 23 samples.

Results

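10 genes that mark the cells lining blood vessels were followed in the mouse testis in vivo and in testis explants kept in culture, to see which of them persisted there. They are Pecam1, Cdh5, Emcn, Egfl7, Robo4, Kdr, Flt1, Tie1, Tek and Aplnr. They were chosen by name as genes of endothelial cells, and all 10 were found among the 27466 genes of the count table through their NCBI gene identifiers. All 10 also passed the filter on low counts, which kept 19255 genes.

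RNA sequencing was done on whole testes of CD-1 mice and on explants of 6.5 dpp (days postpartum) testes. In vivo testes were collected at 6.5 dpp, 10.5 dpp, 22.5 dpp and, as the latest age, 36.5 dpp. The explants were cultured for 4, 16 or 30 days (D4, D16 and D30), so that the in vivo testes of the 3 later ages are their age-matched controls. The tissue was either fresh (FT) or thawed after controlled slow freezing (CSF), which was used at 6.5 dpp in vivo and, for culture, at D30. All cultures contained α-MEM with KnockOut serum replacement, gentamicin and retinol, the retinol being given intermittently. There was no blood supply in vitro, and the necrotic centre of each explant was cut away before RNA was extracted, so that the cultured libraries represent the rim of the tissue. Each cultured library pooled several explants, and cell types were not separated.

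Of the 23 columns, 21 libraries were used. The in vivo testis had 4 libraries of 6.5 dpp (1 fresh and 3 frozen), 3 of 10.5 dpp, 3 of 22.5 dpp and 2 of 36.5 dpp. The cultures had 3 libraries of D4, 2 of D16 and 4 of D30, the last being 3 fresh and 1 frozen. Fresh replicate 3 of 6.5 dpp was identical to fresh replicate 2 for every gene, and was not counted. The library labelled 6.5 dpp fresh replicate 1 was set aside, since its counts ranked most like those of D16 replicate 1 (Spearman's rho = 0.986 across genes) and less like those of 6.5 dpp fresh replicate 2 (0.909). Frozen replicate 3 of 6.5 dpp also stood apart: 21.9% of 14069 genes lay more than 2-fold outside the range of the other 6.5 dpp libraries, against 0.213% to 0.327% for each of those. It was kept. For the 10 genes, the calls at D4 against 6.5 dpp are also given without it. Results of all other genes that rest on 6.5 dpp include it. Library totals ran from 28351546 to 69029328 counts. Levels are counts per 1000000 counts of the library (CPM). Comparisons are log2 fold changes with their standard errors (SE) from edgeR's quasi-likelihood test, and a gene was called when its p-value, adjusted by the Benjamini-Hochberg method over all 19255 genes, was under 0.05. In bulk tissue, fewer endothelial cells and less RNA per endothelial cell cannot be told apart.

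Endothelial cells line the lumen of every vessel and hold together through junctions built from VE-cadherin (Cdh5) and PECAM1. Their growth and survival depend on vascular endothelial growth factor A (Vegfa), which signals through VEGFR2 (Kdr), while VEGFR1 (Flt1) binds the same ligand tightly and acts largely as a decoy. The angiopoietins act through TIE2 (Tek), a receptor linked to vessel quiescence and stability, whose partner TIE1 binds no angiopoietin on its own. In the testis, the vessels run in the interstitium between the seminiferous tubules, beside the Leydig cells and macrophages, and do not enter the tubules.

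On GRCm38.p6, Pecam1 spans chr11:106654213-106715281 (minus strand), Cdh5 chr8:104101613-104144504 (plus), Emcn chr3:137341062-137431069 (plus), Egfl7 chr2:26581083-26592682 (plus) and Robo4 chr9:37401902-37414023 (plus). Kdr lies at chr5:75932827-75979072 (minus) and Flt1 farther along the same chromosome, at chr5:147561604-147726438 (minus). Tie1 at chr4:118471191-118489849 (minus) and Tek at chr4:94739086-94874976 (plus) are also on 1 chromosome, and Aplnr is at chr2:85136360-85139923 (plus). 9 of the 10 shared no exonic base with another gene. Egfl7 shared 264 exonic bases with Gm20532 on its own strand and 64 with Agpat2 on the other, and hosts the microRNA gene Mir126a, so its counts are less certain.

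Promoter sequences (RefSeq, GRCm38.p6) were found for 7 of the 10 genes, with 3 windows for Egfl7. Transcription factors of the ETS family, which include the endothelial regulators ERG and FLI1, bind a core of GGAA, often followed by G. The letters GGAAG or the complement CTTCC were present in the 250 bases before the start in 7 of the 9 windows, and in 64.1% of all 32851 promoter windows of this length. They were absent from 1 window of Egfl7 and from that of Tek, whose level fell in culture. Tek is shown with Kdr, Flt1 and Emcn, which rose between 6.5 dpp and D4. These 4 windows hold at most 11 bases of a GENCODE vM21 exon each. The Egfl7 windows chr2:26583615-26583864 and chr2:26586386-26586635 hold 1 and 6 such bases and are not shown. The second of them is the Egfl7 window without these letters, and Egfl7 was not called at D4 against 6.5 dpp. The 4 windows shown are chr4:94739039-94739288 (plus strand), chr5:75978456-75978705 (minus strand), chr5:147726012-147726261 (minus strand) and chr3:137340828-137341077 (plus strand), and capitals mark GGAAG and CTTCC.
Tek: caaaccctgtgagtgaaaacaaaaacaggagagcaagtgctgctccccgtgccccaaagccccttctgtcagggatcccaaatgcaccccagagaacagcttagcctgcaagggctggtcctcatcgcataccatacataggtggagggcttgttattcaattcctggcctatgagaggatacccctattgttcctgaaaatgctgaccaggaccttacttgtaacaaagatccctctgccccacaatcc
Kdr: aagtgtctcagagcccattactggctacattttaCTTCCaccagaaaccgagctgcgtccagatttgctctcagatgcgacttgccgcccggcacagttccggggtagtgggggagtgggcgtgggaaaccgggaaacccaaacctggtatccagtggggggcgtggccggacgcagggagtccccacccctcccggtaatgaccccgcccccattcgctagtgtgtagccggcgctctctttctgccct
Flt1: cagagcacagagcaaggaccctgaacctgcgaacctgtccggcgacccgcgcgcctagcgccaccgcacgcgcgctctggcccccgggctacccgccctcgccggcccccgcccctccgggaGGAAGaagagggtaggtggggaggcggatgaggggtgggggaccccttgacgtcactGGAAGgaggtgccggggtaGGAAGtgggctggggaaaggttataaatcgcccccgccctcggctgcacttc
Emcn: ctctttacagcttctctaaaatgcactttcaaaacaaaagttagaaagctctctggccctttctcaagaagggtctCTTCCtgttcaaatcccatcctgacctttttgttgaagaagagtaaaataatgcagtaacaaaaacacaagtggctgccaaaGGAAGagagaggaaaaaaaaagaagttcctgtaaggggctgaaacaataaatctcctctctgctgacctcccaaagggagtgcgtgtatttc
The shorter core GGAA or TTCC, which GGAAG contains, was present in all 7 genes and in 93.4% of all windows. The windows of Kdr and Flt1 lie before the start used for the promoters but within the widest RefSeq span of the gene. Those of Tek and Emcn lie partly within the span of their gene. A match is a run of letters in a window, and its absence in Tek says only that these letters are not there.

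In vivo, the endothelial genes were at their highest in the young testis and were lower after 10.5 dpp. Between 6.5 and 10.5 dpp none of the 10 was called by edgeR, none reached an unadjusted p under 0.05 and DESeq2 also called 0 (1.14% of all genes were called, 0.675% higher and 0.467% lower). Between 10.5 and 22.5 dpp 9 of 10 fell (edgeR; 61.5% of all genes tested were called, 33.6% higher and 27.9% lower), and Flt1 was not called. From 22.5 to 36.5 dpp 6 fell (50.7% of all genes, 23.3% higher and 27.5% lower) and Kdr, Tek, Egfl7 and Flt1 were not called. Of these falls, those of Emcn, Tek and Tie1 after 10.5 dpp and of Tie1 and Emcn after 22.5 dpp were lost on leaving out 1 library: Emcn without 10.5 dpp replicate 2 or any of the 22.5 dpp libraries (edgeR adjusted p = 0.0501 to 0.247) and then without 36.5 dpp replicate 2 (0.212), Tek without 10.5 dpp replicate 1 or 22.5 dpp replicate 1 or 3 (0.0621 to 0.0753), and Tie1 without 10.5 dpp replicate 2 or 22.5 dpp replicate 1 or 2 (0.0576 to 0.108) and then without 36.5 dpp replicate 1 (0.158). Over the same ages the summed level of 7 germ cell genes, among them the protamine genes Prm1 and Prm2, ran from 958.2 to 1215 CPM at 10.5 dpp, from 1662 to 2281 CPM at 22.5 dpp and from 14570 to 18410 CPM at 36.5 dpp. The summed level of 5 Sertoli cell genes ran from 1482 to 1585 CPM, then from 316.7 to 567.1 CPM and then from 114.8 to 131.4 CPM. The part of these changes in the fall of the endothelial genes was not tested.

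At D30 in culture, most of the genes had libraries within or above their range at 6.5 dpp, while Tek and Aplnr lay below it. D30 was not tested against 6.5 dpp. Leaving frozen replicate 3 of 6.5 dpp aside, Cdh5 at D30 (61.8 to 84.3 CPM) lay below the 6.5 dpp libraries. Kdr and Egfl7 were then within or above the 6.5 dpp range only in the frozen D30 library (41.6 and 20.7 CPM). At D4 6 genes rose and 2 fell against 6.5 dpp, the tissue from which the explants were cut (20.9% of all genes were called, 10.8% higher and 10.1% lower). Against 10.5 dpp 5 were higher and 2 lower (8.1% of all genes, 4.92% higher and 3.18% lower). At D16 8 rose and 1 fell against 22.5 dpp (25.8% of all genes, 14% higher and 11.8% lower), and at D30 7 rose and 2 fell against 36.5 dpp (67.4% of all genes, 32.4% higher and 35% lower). The members' median log2 fold change was 0.91, 0.82, 1.68 and 2.45 in these 4 comparisons, beside -0.03, -0.01, -0.08 and -0.03 over all genes tested. With library size as the only scaling, the median of all genes moved to 0.60 for D30 against 36.5 dpp, and the members' median kept its direction in all 4 comparisons under each scaling. The in vivo levels fell with age, so the later comparisons rest on lower controls. Without frozen replicate 3 of 6.5 dpp, the same 8 genes were called at D4 against 6.5 dpp, with log2 fold changes of 0.92 for Pecam1, 1.07 for Emcn, 0.92 for Robo4, 0.90 for Kdr, 1.27 for Flt1, 1.44 for Tie1, -1.20 for Tek and -3.99 for Aplnr (edgeR). With the fresh 6.5 dpp library alone as the control of D4, 3 genes were called instead of 8 (4.99% of all genes were called there), and the calls of Pecam1, Robo4, Kdr, Tie1 and Emcn were lost (edgeR adjusted p = 0.0955 to 0.249).

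**Figure D1:**
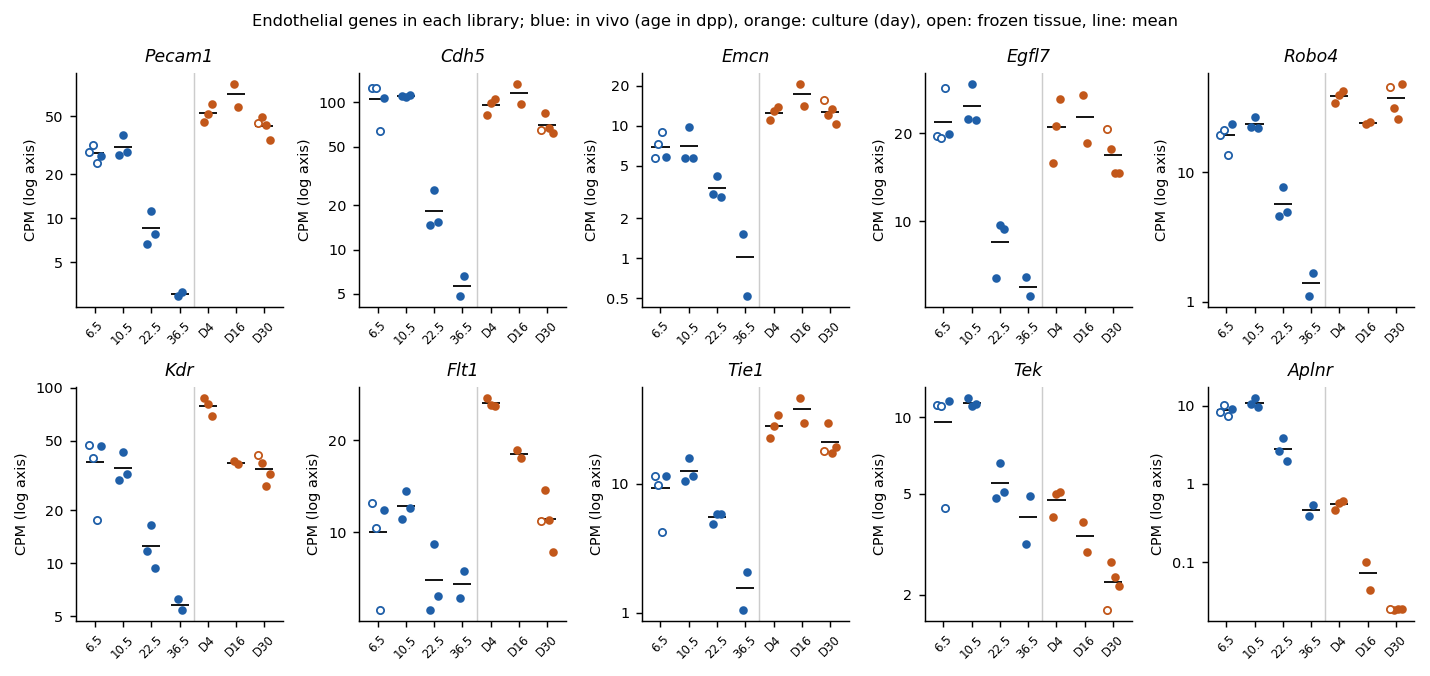
CPM of the 10 endothelial genes (vertical axis, logarithmic) in each of the 21 libraries, by age in vivo in dpp (blue) and day of culture (orange). Open points are frozen tissue and lines are means. Tek and Aplnr are lower at D30 than at 6.5 dpp, and each of the other 8 genes has at least 1 D30 library within or above its range at 6.5 dpp, for Cdh5 only through frozen replicate 3 of 6.5 dpp.

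PECAM1 (CD31) is an adhesion molecule of endothelial cells, platelets and leukocytes. Its level at 6.5 dpp was 26.8 CPM in the fresh library and 28.7, 32 and 23.9 CPM in the frozen ones, and 27.2, 37.6 and 28.3 CPM at 10.5 dpp. It was 6.68, 11.3 and 7.84 CPM at 22.5 dpp and 2.91 and 3.11 CPM at 36.5 dpp. In culture it was 45.4, 52.1 and 60.5 CPM at D4, 83.6 and 58.2 CPM at D16, and 49.5, 43.6 and 34.4 CPM at D30 with 45.3 CPM in the frozen library. Every cultured library was above every 6.5, 22.5 and 36.5 dpp library, and 1 D30 library lay within the range of 10.5 dpp. The log2 fold change of Pecam1 was 0.94 ± 0.19 (SE) at D4 against 6.5 dpp (edgeR, adjusted p = 0.00161), 0.85 ± 0.20 against 10.5 dpp (adjusted p = 0.0135), 2.91 ± 0.23 at D16 (adjusted p = 4.33e-07) and 3.21 ± 0.26 at D30 (adjusted p = 5.48e-08). Without 10.5 dpp replicate 1, 10.5 dpp replicate 3 or D4 replicate 3, the call of Pecam1 against 10.5 dpp was lost (edgeR adjusted p = 0.0814, 0.0801 and 0.0681).

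Cdh5, which encodes VE-cadherin, started from the highest level per length of the 10 genes, with 25.1 ± 6.91 as CPM per kilobase of exon (RPKM; mean ± SD, n = 4) at 6.5 dpp. Its CPM at 6.5 dpp was 107 in the fresh library and 126, 125 and 63.8 in the frozen ones, the last being the library that stood apart. At D4 it was 81.8, 99.2 and 105 CPM, at D16 134 and 96.9 CPM, and at D30 84.3, 67.5, 61.8 and 65.4 CPM. The D4 libraries lay within the range of 6.5 dpp, but they and all D30 libraries were below it without that library, and edgeR gave a log2 fold change of -0.11 ± 0.21 (adjusted p = 0.776), or -0.26 ± 0.19 without frozen replicate 3 (adjusted p = 0.41). In vivo, Cdh5 fell from 109 to 113 CPM at 10.5 dpp to 14.7 to 25.3 CPM at 22.5 dpp and 4.81 and 6.58 CPM at 36.5 dpp. In vitro no fall of Cdh5 was called, and it was higher by 2.51 ± 0.26 (log2) at D16 against 22.5 dpp (edgeR adjusted p = 4.37e-06) and by 2.98 ± 0.28 at D30 against 36.5 dpp (adjusted p = 2.57e-07).

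Emcn encodes endomucin, a sialomucin of veins and capillaries. It rose from 5.74 to 8.96 CPM at 6.5 dpp to 11, 13 and 13.8 CPM at D4, with a log2 fold change of 0.87 ± 0.30 (edgeR adjusted p = 0.0452). Alternatives are counted here and below at the same threshold of adjusted p, leaving out the stricter threshold (a log2 fold change of 2 or more in size with an adjusted p no higher than 0.001). This call was lost under 11 of 15, with edgeR and DESeq2 adjusted p from 0.0181 to 0.229, and the change against 10.5 dpp was not called (0.92 ± 0.32, adjusted p = 0.0928). The levels were 20.7 and 14.1 CPM at D16 and 12.0, 13.3, 10.3 and 15.6 CPM at D30, all above the 2.88 to 4.17 CPM of 22.5 dpp and the 1.51 and 0.514 CPM of 36.5 dpp. The log2 fold change of Emcn was 2.22 ± 0.36 at D16 (edgeR adjusted p = 0.000352) and 3.04 ± 0.41 at D30 (adjusted p = 7.52e-06).

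Robo4 encodes a roundabout receptor of endothelial cells that acts to stabilise vessels. It was 23.8 CPM in the fresh and 19.6, 21.2 and 13.6 CPM in the frozen libraries of 6.5 dpp, and 34.7, 39.7 and 42.3 CPM at D4, without overlap. After 23.6 and 24.6 CPM at D16, it was 31.4, 25.8 and 48.4 CPM in the fresh and 45.6 CPM in the frozen libraries of D30. Of the 10 genes, Robo4 was higher by the most at D30 against 36.5 dpp, 17.3-fold (log2 4.11 ± 0.31, edgeR adjusted p = 3.18e-08). At 36.5 dpp it was 1.10 and 1.67 CPM. Its rise from 6.5 dpp to D4 was 1.02 ± 0.21 on the log2 scale (edgeR adjusted p = 0.00232). The call of a higher level at D4 against 10.5 dpp (0.80 ± 0.23, edgeR adjusted p = 0.040) was lost under 9 of 15 alternatives. Among them was the omission of any library of either group (edgeR adjusted p = 0.0637 to 0.163). Egfl7 encodes a secreted matrix protein of endothelial cells. It was 19.2 to 28.4 CPM at 6.5 dpp, 15.8, 21.1 and 26.2 CPM at D4, 27.0 and 18.6 CPM at D16, and 17.7, 14.6, 14.6 and 20.7 CPM at D30. It was not called at D4 against 6.5 dpp (log2 fold change -0.04 ± 0.23, edgeR adjusted p = 0.943), and was higher at D16 against 22.5 dpp (1.27 ± 0.27, adjusted p = 0.00383) and at D30 against 36.5 dpp (0.86 ± 0.28, adjusted p = 0.0107). The call at D30 was lost without 36.5 dpp replicate 2 (edgeR adjusted p = 0.0879), with RLE as the scaling (log2 0.60, edgeR adjusted p = 0.0681) and with DESeq2 (0.0578).

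The VEGF receptors rose early and then declined. Kdr was 46.5 CPM in the fresh and 47.1, 39.6 and 17.6 CPM in the frozen libraries of 6.5 dpp, and 87.6, 80.5 and 69.4 CPM at D4. It was 38.2 and 36.6 CPM at D16 and 37.2, 27.4, 32.1 and 41.6 CPM at D30. All D4 libraries were above all others, and D16 and D30 overlapped with 6.5 and 10.5 dpp, D16 with 6.5 dpp only through the lowest frozen library. Kdr was 2.17-fold higher at D4 than at 6.5 dpp (log2 1.12 ± 0.25, edgeR adjusted p = 0.00341) and then 2.05-fold lower at D16 than at D4 (log2 -1.03 ± 0.30, adjusted p = 0.0184). This fall was lost without D4 replicate 1, D16 replicate 1 or D16 replicate 2 (edgeR adjusted p = 0.0555, 0.126 and 0.0908), whereas the fall from D4 to D30 held under all 16 alternatives at the same threshold, though not at the stricter one (log2 -1.12 ± 0.25, adjusted p = 0.00117).

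Flt1 followed a like course. It was 11.8 CPM in the fresh and 12.4, 10.3 and 5.57 CPM in the frozen libraries of 6.5 dpp, and 27.5, 26.1 and 25.9 CPM at D4. At D16 it was 18.6 and 17.4 CPM, and at D30 13.7, 10.9, 8.62 and 10.8 CPM. The D4 libraries were the highest and differed by little from each other, and D30 overlapped with 6.5 dpp. The rise from 6.5 dpp to D4 (log2 1.44 ± 0.22, edgeR adjusted p = 0.000161) held under all 15 alternatives at the same threshold, though not at the stricter one, with adjusted p from 4.03e-09 to 0.0397. Flt1 fell from D4 to D30 by 1.18 ± 0.22 on the log2 scale (edgeR adjusted p = 0.000317). In vivo it was 5.54 to 9.17 CPM at 22.5 dpp and 6.09 and 7.46 CPM at 36.5 dpp, and its fall after 10.5 dpp was not called (log2 -0.53 ± 0.24, edgeR adjusted p = 0.0649), though it was with library size as the only scaling. Flt1 at D30 and 36.5 dpp did not overlap in CPM, but after TMM scaling the log2 fold change was 0.07 ± 0.26 (edgeR adjusted p = 0.819). This value depended on the scaling, being -0.19 with RLE (adjusted p = 0.499) and 0.70 with library size alone (adjusted p = 0.0362).

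The TIE receptors moved apart. Tie1 was 11.5 CPM in the fresh and 11.4, 9.73 and 4.20 CPM in the frozen libraries of 6.5 dpp, and 22.8, 28.1 and 33.9 CPM at D4. It was 46.6 and 29.6 CPM at D16, and 29.7, 17.2, 19.4 and 17.9 CPM at D30, above every in vivo library. Tie1 had the largest rise of the 10 genes from 6.5 dpp to D4, 3.15-fold (log2 1.66 ± 0.30, edgeR adjusted p = 0.000815), and was higher by 2.64 ± 0.37 (log2) at D16 against 22.5 dpp (adjusted p = 0.000105) and by 3.12 ± 0.42 at D30 against 36.5 dpp (adjusted p = 7.07e-06). Against 10.5 dpp the call of Tie1 as higher at D4 (1.25 ± 0.33, edgeR adjusted p = 0.0242) was lost without 10.5 dpp replicate 1 or 3 or D4 replicate 2 or 3 (adjusted p = 0.0646 to 0.116).

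Tek, which encodes the angiopoietin receptor TIE2, was 11.6 CPM in the fresh and 11.2, 11.1 and 4.37 CPM in the frozen libraries of 6.5 dpp, and 11.9, 11 and 11.3 CPM at 10.5 dpp. At D4 it was 4.06, 4.99 and 5.10 CPM, at D16 3.87 and 2.95 CPM, and at D30 2.68, 2.36, 2.17 and 1.73 CPM. Of the 6.5 and 10.5 dpp libraries only frozen replicate 3 of 6.5 dpp overlapped with D4, as did libraries of 22.5 and 36.5 dpp, and the D30 libraries were below every in vivo library. The log2 fold change from 6.5 dpp to D4 was -0.98 ± 0.27 (edgeR adjusted p = 0.0148), and -1.20 ± 0.21 without frozen replicate 3 (adjusted p = 0.00059). Against 10.5 dpp it was -1.19 ± 0.28 (adjusted p = 0.0127). Both calls were lost without D4 replicate 1 (edgeR adjusted p = 0.079 and 0.0719), the first also with only these groups in the fit (0.0626) and the second also without 10.5 dpp replicate 1 (0.0503). Tek fell further from D4 to D30 (log2 -0.99 ± 0.27, edgeR adjusted p = 0.00525) and was 2.81-fold lower at D30 than at 36.5 dpp (log2 -1.49 ± 0.29, adjusted p = 0.000268), where it was 3.18 and 4.91 CPM. At D16 against 22.5 dpp it was not called (-0.83 ± 0.33, adjusted p = 0.0661).

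Aplnr, the receptor of apelin and of veins and sprouting vessels in particular, was nearly lost. It was 9.08 CPM in the fresh and 8.32, 10.2 and 7.27 CPM in the frozen libraries of 6.5 dpp. At D4 it was 0.464, 0.576 and 0.608 CPM, at D16 0.101 and 0.0437 CPM and at D30 0.0242, 0.0253, 0.0252 and 0.0251 CPM. No cultured library overlapped with 6.5, 10.5 or 22.5 dpp, and only D4 overlapped with 36.5 dpp. The 1461 counts of the 4 libraries at 6.5 dpp stood against 86 in the 3 libraries of D4, a 15.8-fold difference per library total (95% interval 12.7 to 19.9, counting error only). Against the 6 counts of both D16 libraries the ratio was 126 (57.7 to 344), and against the 4 counts at D30, 1 in each library, it was 354 (138 to 1301). The edgeR fold change at D4 was -3.95 ± 0.26 (log2, adjusted p = 1.71e-08) and was called under all 15 alternatives and at the stricter threshold. Aplnr also declined in vivo, to 2.61, 3.86 and 1.96 CPM at 22.5 dpp and 0.386 and 0.540 CPM at 36.5 dpp, where the 34 counts of 2 libraries stood against 4 in 4 libraries at D30, a ratio of 18.8 (6.70 to 72.9).

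**Figure D2:**
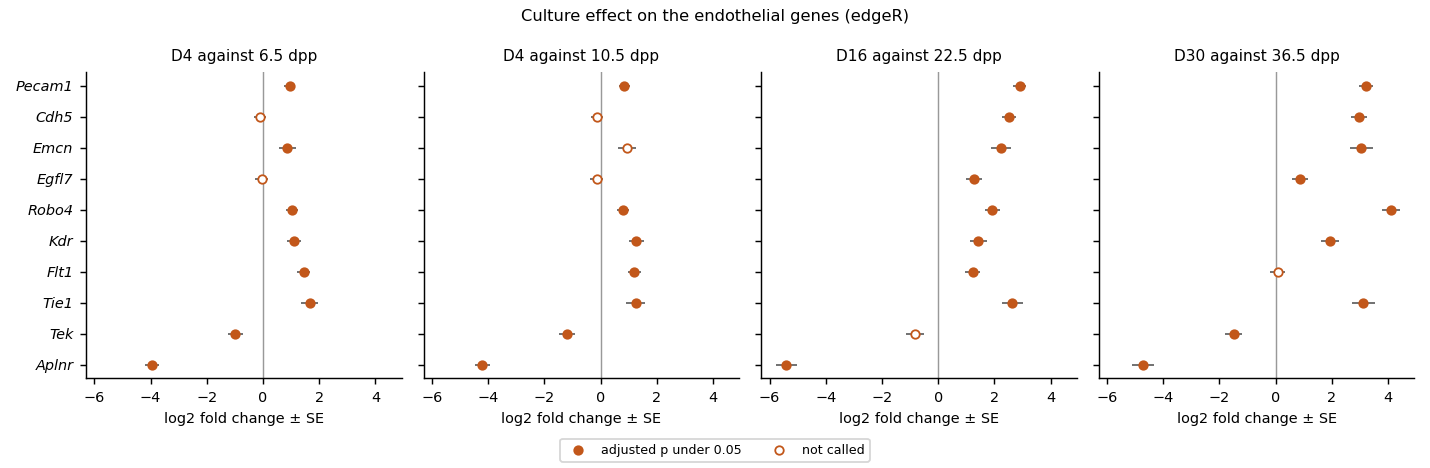
Log2 fold changes (horizontal axis; point ± SE, edgeR) of the 10 genes in 4 comparisons of culture with the testis in vivo; filled points were called at an adjusted p under 0.05. Aplnr lies far to the left in each, from -3.95 to -5.40, and the genes other than Tek, Aplnr and Flt1 lie farthest to the right at D16 or D30.

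The difference between the culture effects at 2 stages was tested directly, as the difference of D16 against 22.5 dpp (or D30 against 36.5 dpp) and D4 against 10.5 dpp, which share no libraries. At D16 the effect was larger than at D4 for 4 genes, Pecam1, Cdh5, Egfl7 and Robo4 (9.61% of all genes were called, 5.26% higher and 4.36% lower), and smaller for 0. At D30 it was larger for 6, Pecam1, Cdh5, Tie1, Emcn, Egfl7 and Robo4, and smaller for Flt1 (46.4% of all genes were called, 25.8% higher and 20.7% lower). The largest differences at D30 were those of Robo4 (log2 3.31 ± 0.37, edgeR adjusted p = 6.44e-06) and Cdh5 (3.11 ± 0.35, adjusted p = 8.49e-06). Those of Tek and Aplnr were -0.30 ± 0.41 and -0.50 ± 0.42 and were not called (edgeR adjusted p = 0.574 and 0.439). The call of Flt1 was not kept with library size as the only scaling (adjusted p = 0.379), nor without 36.5 dpp replicate 2 (edgeR, 0.0624). That of Tie1 was lost without 36.5 dpp replicate 1 (edgeR, 0.0548), and that of Egfl7 under 9 of 21 alternatives. At D16 the calls of Robo4 and Egfl7 were lost under 14 and 6 of 20 alternatives. These differences take in changes both in culture and in vivo. From D4 to D30 in culture, Robo4 and Cdh5 were not called (log2 0.03 and -0.37). In vivo they changed by -1.77 and -2.31 from 10.5 to 22.5 dpp, and by -1.52 and -1.16 from 22.5 to 36.5 dpp.

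Between days of culture, the number of the 10 genes called in either direction was near or below the share of all genes, but every call was a fall. From D4 to D16 and from D4 to D30, the share that fell was above that of all genes. From D4 to D16 Kdr and Aplnr fell and 0 rose (23.9% of all genes were called, 18.4% higher and 5.48% lower). From D16 to D30 edgeR and DESeq2 both called 0 of 10 (1.79% of all genes were called by edgeR, 1.46% higher and 0.332% lower), while 5 had an unadjusted p under 0.05 in edgeR. Over the whole span from D4 to D30 Kdr, Flt1, Tek and Aplnr fell and 0 rose (45.6% of all genes were called, 27.9% higher and 17.7% lower). For the other 6 genes the log2 fold change from D4 to D30 lay between -0.37 ± 0.21 for Cdh5 and 0.11 ± 0.30 for Emcn. At D30 the single frozen library lay outside the range of the 3 fresh ones for Emcn, Kdr and Egfl7, which were higher in it (15.6, 41.6 and 20.7 CPM), and for Tek, which was lower (1.73 CPM). With 1 frozen library this has no test.

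The order of the levels changed accordingly. Per length, the 6.5 dpp testis had Cdh5 first (25.1 RPKM), followed by Egfl7 (6.08 ± 1.24), Pecam1 (4.47 ± 0.54), Kdr (4.17 ± 1.53) and Robo4 (3.69 ± 0.82), of which Pecam1, Kdr and Robo4 did not differ beyond their spread. Aplnr (2.36 ± 0.34), Tek (2.03 ± 0.74), Tie1 (1.88 ± 0.70), Emcn (1.28 ± 0.28) and Flt1 (0.743 ± 0.23) came after them. At D30 Cdh5 was still first (16.6 ± 2.38 RPKM, n = 4), Robo4 (7.13 ± 2.06) and Pecam1 (6.93 ± 1.02) did not differ beyond their spread, and Tek (0.474 ± 0.084) and Aplnr (0.00674 ± 0.00015) were last. The RPKM ratio of Tie1 to Tek shows the change within each library. At 6.5 dpp it was 0.839 to 0.974, at 10.5 dpp 0.850 to 1.37, and at 22.5 dpp 0.850 to 1.10, and the older testes of 36.5 dpp had 0.314 and 0.401. In culture it was 5.38 to 6.38 at D4, 11.5 and 9.62 at D16 and 7.01 to 10.6 at D30, without overlap with any age in vivo. Frozen replicate 3 of 6.5 dpp, at 0.920, lay within the range of its group. The ratio of Aplnr to Cdh5 was 0.0752 to 0.202 over all ages in vivo and 0.00645 to 0.00660 at D4. The ratio of Kdr to Flt1 was 4.73 to 5.87 at 6.5 dpp, and 5.67 to 5.87 there without frozen replicate 3. It was 4.01 to 4.76 at D4, which overlapped with 6.5 dpp only through that library, 3.08 and 3.13 at D16, below every 6.5 dpp library, and 3.76 to 5.73 at D30, which overlapped with 6.5 dpp either way. In vivo the ratio of Kdr to Flt1 was also lower after 6.5 dpp, at 4.03 to 4.69 at 10.5 dpp and 2.274 to 3.155 at 22.5 dpp. It was 1.08 and 1.53 at 36.5 dpp. D4 and D16 thus overlapped with their age-matched testes, while D30 lay above 36.5 dpp.

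**Figure D3:**
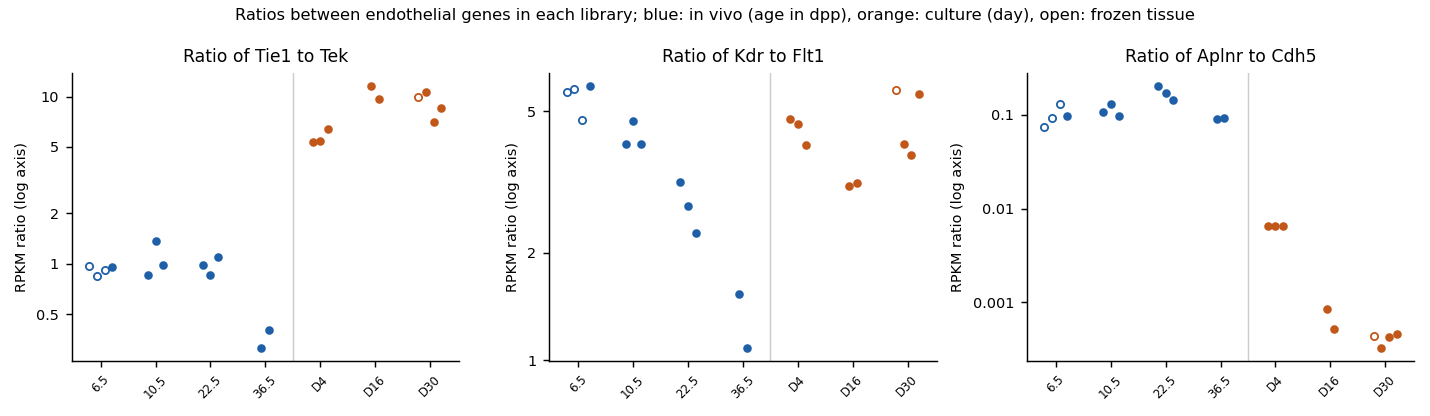
RPKM ratios (vertical axes, logarithmic) of Tie1 to Tek, Kdr to Flt1 and Aplnr to Cdh5 in each library, by age in vivo in dpp (blue) and day of culture (orange); open points are frozen tissue. Tie1 to Tek is at most 1.37 in vivo and at least 5.38 in culture, and Aplnr to Cdh5 is at least 0.0752 in vivo and at most 0.00660 in culture.

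Over the 21 libraries, the genes fell into those that shared a profile and those that did not. Pearson's correlation of each gene's log2 CPM with the mean standardized profile of the other 9 was 0.945 for Cdh5, 0.901 for Kdr, 0.892 for Pecam1, 0.848 for Robo4, 0.788 for Egfl7, 0.771 for Tie1, 0.724 for Emcn and 0.521 for Flt1. For Tek it was -0.162 and for Aplnr -0.191. The 10 other genes whose profile was most like the mean of all members were Lama4 (r = 0.973), Wscd1, Adcy4, Elk3, Mmp15, Itga5, Tgfbr2, Unc5b, Mmp14 and Pygb (r = 0.946). Of these, Lama4 encodes a laminin chain of vascular basement membranes, Itga5 the fibronectin receptor subunit and Elk3 an ETS family factor. None of the 10 was among the 30 other genes of endothelial cells that were listed for comparison. All points share the same libraries and stages.

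The ligands of these receptors changed as well. Vegfa was 31.7 CPM in the fresh and 42.1, 41.3 and 31.5 CPM in the frozen libraries of 6.5 dpp, and 333, 315 and 256 CPM at D4. It was 135 and 191 CPM at D16 and 104, 102, 112 and 67.1 CPM at D30, so that every cultured library was above every in vivo one. The log2 fold change of Vegfa was 3.07 ± 0.24 at D4 against 6.5 dpp (edgeR adjusted p = 1.04e-07), 3.67 ± 0.29 at D16 against 22.5 dpp (adjusted p = 3.58e-07) and 3.73 ± 0.32 at D30 against 36.5 dpp (adjusted p = 9.73e-08). It fell from D4 to D30 by 1.57 ± 0.23 on the log2 scale (edgeR adjusted p = 2.58e-05), as Kdr and Flt1 did. Pgf, the placental growth factor that binds VEGFR1 and not VEGFR2, was 1.63 to 3.39 CPM at 6.5 dpp and 6.59 to 8.80 CPM at D4, and Vegfb, another ligand of VEGFR1, was 18.4 to 23.3 CPM and 10.1 to 15.8 CPM.

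Angpt2, an angiopoietin that can act as an antagonist of TIE2, was 5.37 CPM in the fresh and 4.70, 6.52 and 5.75 CPM in the frozen libraries of 6.5 dpp. It was 28.8, 37.1 and 36.4 CPM at D4, 20.9 and 27.8 CPM at D16, and 6.04, 7.53, 8.99 and 6.58 CPM at D30. Angpt2 rose by 2.63 ± 0.23 (log2) from 6.5 dpp to D4 (edgeR adjusted p = 3.16e-07) and fell by 2.15 ± 0.22 from D4 to D30 (adjusted p = 5.60e-07). Angpt1, the activating ligand of TIE2, was 0.936 to 1.91 CPM at 6.5 dpp and 2.11 to 2.29 CPM at D4. The RPKM ratio of Angpt2 to Angpt1 lay between 4.26 and 8.40 at 6.5 dpp, between 19.2 and 23.5 at D4 and between 5.53 and 14 at D30. The testes of 36.5 dpp had ratios of 22.3 and 31.5. The apelin gene Apln was 25.3 to 30.5 CPM at 6.5 dpp, 18.7 to 21.3 CPM at D4 and 9.82 to 13.9 CPM at D30. Apln was thus lower at D4 and D30 than at 6.5 dpp without overlap, by less than its receptor gene Aplnr. The testes of 22.5 and 36.5 dpp also lay below 6.5 dpp for Apln, so this does not set culture apart from the later ages in vivo. Flt4, which encodes the VEGF-C receptor VEGFR3, was 1.30 to 3.62 CPM at 6.5 dpp and 10.6 to 11.5 CPM at D4. Of the 12 ligands and coreceptors, 5 rose and 1 fell at D4 against 6.5 dpp (10.8% of all genes were higher and 10.1% lower). Nrp1, the coreceptor of VEGFR2, and Flt4 were among those that rose, and Vegfb was the one that fell. Vegfc, Vegfd and Nrp2 were not called (edgeR), and Apela, the second ligand of Aplnr, was at most 1.21 CPM in any library and at 0 counts in the 3 libraries of 22.5 dpp.

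**Figure D4:**
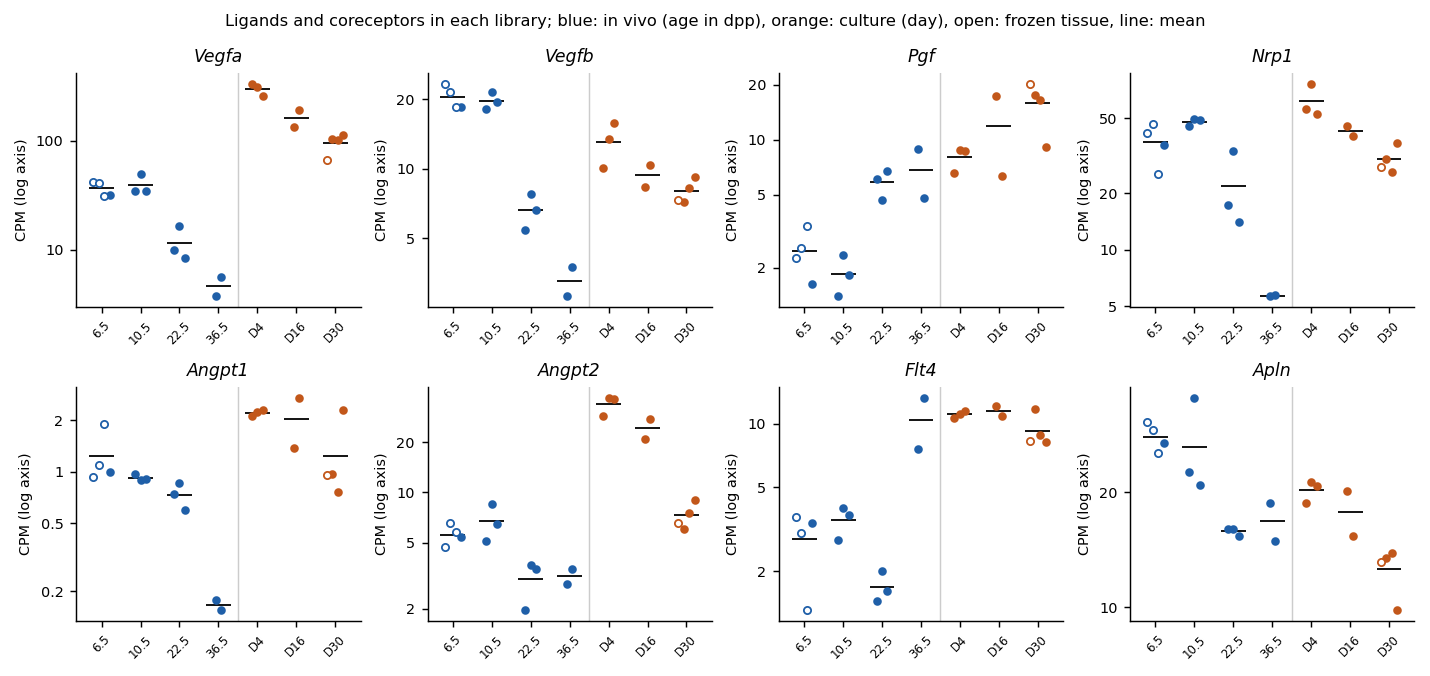
CPM (vertical axes, logarithmic) of 8 ligands, coreceptors and receptors of the same pathways in each library, by age in vivo in dpp (blue) and day of culture (orange); open points are frozen tissue and lines are means. Vegfa and Angpt2 peak at D4, at 256 to 333 and 28.8 to 37.1 CPM.

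Of 30 other genes of endothelial cells, some rose and some fell at D4, and most were above the age-matched testis later. Against 6.5 dpp 7 rose and 4 fell (10.8% of all genes were higher and 10.1% lower). Against 10.5 dpp 4 were higher and 4 lower (4.92% and 3.18% of all genes). D16 explants had 21 of the 30 above and 2 below the 22.5 dpp testis, and D30 explants had 21 above and 1 below the 36.5 dpp testis (edgeR). Over all genes tested, 14% were higher and 11.8% lower at D16, and 32.4% and 35% at D30. In vivo 15 of the 30 fell from 10.5 to 22.5 dpp (27.9% of all genes) and 14 from 22.5 to 36.5 dpp (27.5%). Within culture 2 rose and 10 fell from D4 to D30 (27.9% and 17.7% of all genes). The median log2 fold change of the list against the testis was 0.10, 0.22, 1.34 and 1.54 in these 4 comparisons. Cd34, a sialomucin that stromal cells also carry, had a mean of 224 CPM at 6.5 dpp, 261 CPM at D4 and 210 CPM at D30, and Kank3 of 31.2, 40.8 and 47.3 CPM, both not called at D4 against 6.5 dpp. Acvrl1, the ALK1 receptor for BMP9, fell from a mean of 89.1 CPM at 6.5 dpp to 41.5 CPM at D4 (log2 fold change -1.07, edgeR). Named after their values were seen, Eng, the partner of ALK1, and Sox18 fell as well (-1.24 and -0.91), and Nos3, the endothelial nitric oxide synthase, rose (2.07). They are a choice from a list in which 7 genes rose and 4 fell, and do not stand for it.

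Of 9 genes of Notch and ephrin signalling, which sets arterial and venous identity, 3 rose and 1 fell at D4 against 6.5 dpp (10.8% and 10.1% of all genes). Those named were the arterial ligand gene Efnb2, which rose (log2 fold change 0.95, edgeR), its venous receptor gene Ephb4, which was not called (-0.04), and Notch1, which was not called (0.91). Of 5 genes of activated endothelium Sele and Icam1 rose and Vcam1 was not called (log2 0.44). Of 5 lymphatic genes 0 were called at D4 by edgeR against either age and 0 had an unadjusted p under 0.05. Over all genes, 20.9% were called against 6.5 dpp and 8.1% against 10.5 dpp. Prox1, which specifies lymphatic identity, was 0.776 CPM at 6.5 dpp and 1.17 CPM at D4 on average.

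Of 8 genes of mural cells, the pericytes and smooth muscle around vessels, 2 rose and 2 fell at D4 against 6.5 dpp (10.8% and 10.1% of all genes). The summed level of the mural genes was 294.7 to 509.5 CPM at 6.5 dpp, 409.3 to 531.9 CPM at D4, 365.2 to 442.6 CPM at D16 and 193.9 to 252.7 CPM at D30, and 26.2 to 31.3 CPM at 36.5 dpp. Among them, Rgs5, a pericyte gene, fell at D4 against 6.5 dpp (log2 fold change -1.82, edgeR), while Pdgfrb and Mcam were not called (0.60 and 0.40). Leukocytes also carry PECAM1. The summed level of 8 leukocyte genes was 79.6 to 144.3 CPM at 6.5 dpp, 64.6 to 89.9 CPM at D4, 398.9 to 499.1 CPM at D16 and 432.9 to 839.5 CPM at D30, and 106.4 to 147.3 CPM at 36.5 dpp. At D4, where Pecam1 was higher than at 6.5 dpp, 6 of these 8 genes had fallen and 1 had risen. At D30 all 8 were higher than at 36.5 dpp (32.4% of all genes were). The part of leukocytes in the level of Pecam1 was not tested. Of 5 tested genes of blood cells 1 rose and 3 fell at D4 against 6.5 dpp. Hba-a1, an alpha globin gene, had a mean of 33.5 CPM at 6.5 dpp and 0.143 CPM at D4, and Hbb-bt, a beta globin gene, 25.4 and 0.0568 CPM.

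Of 6 Leydig cell genes 3 fell at D4 against 6.5 dpp (10.1% of all genes). All 6 were lower at D30 than at 36.5 dpp (35% of all genes), with summed levels of 325.4 to 600.0 and 1571 to 1947 CPM. The summed level of 5 peritubular genes, among them Acta2, was 796.9 to 928.4 CPM at 6.5 dpp and 372.4 to 573.4 CPM at D4, with 2 lower and 0 higher. At D4 against 6.5 dpp 2 of 5 Sertoli cell genes rose and 1 fell, and 1 of 7 germ cell genes rose (10.8% of all genes rose). All 5 Sertoli cell genes were higher at D16 than at 22.5 dpp and at D30 than at 36.5 dpp, as most endothelial genes were (14% and 32.4% of all genes). The summed level of the 7 germ cell genes was 1004 to 2749 CPM at D30, against 14570 to 18410 CPM at 36.5 dpp. The part of these shifts in tissue makeup in the endothelial levels at D16 and D30 was not tested.

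**Figure D5:**
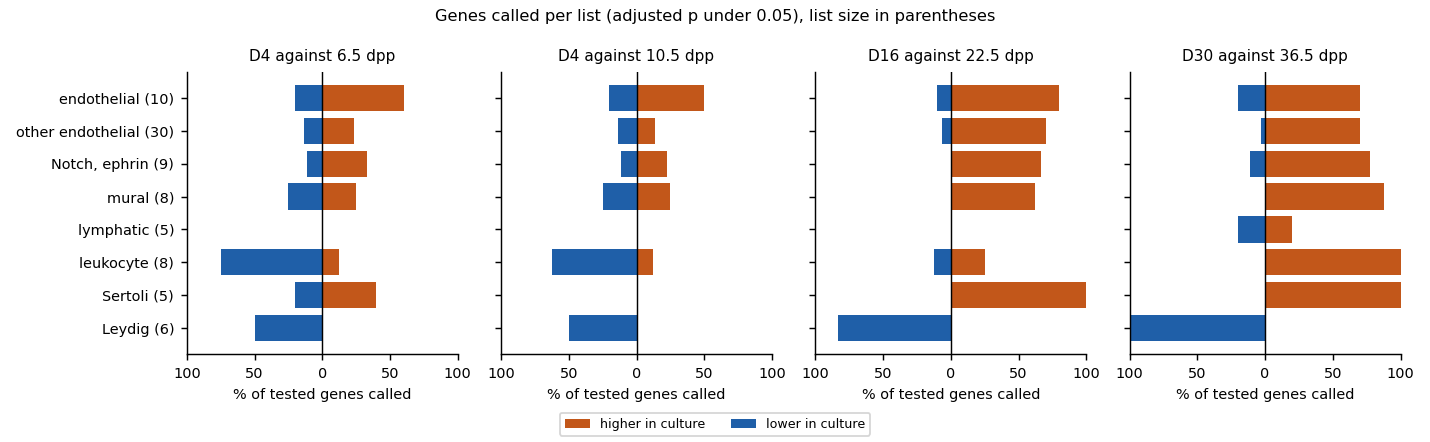
Share of tested genes (horizontal axis, percent) called higher (orange, right) or lower (blue, left) in culture for 8 lists in 4 comparisons, with the list size in parentheses. Among the 10 endothelial genes more were higher than lower in each comparison. All 8 leukocyte and all 5 Sertoli genes were higher at D30 against 36.5 dpp, as were 32.4% of all genes.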

How the data were processed

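Whole mouse testes and testis explants were profiled by RNA sequencing, and the group of each library came from its labels. The deposited values are raw counts of single-end reads per gene, which the authors made with STAR 2.7.3a on GRCm38 and HTSeq 0.12.4. The strand setting is not given in the sources used here. The table names 27466 NCBI genes, of which 27373 matched RefSeq (GRCm38.p6); 0.0207% of all counts lay on the others. Counts were analysed with edgeR 4.0.16 in R 4.3.3 (TMM, filterByExpr, quasi-likelihood test) in 1 fit of 7 stages, frozen with fresh, and with DESeq2 1.42.0 as an alternative. RPKM used the union of GENCODE vM21 exons. Ratios of few counts have exact Clopper-Pearson intervals of 95%. The tests were checked on simulated counts.

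The members and the 12 gene lists, and the rule for named genes, were chosen with earlier results of these data known. By that rule the named genes were the members, the ligands and coreceptors, genes among the 3 of highest mean CPM in each other list, and the 10 genes most correlated with the members. Eng, Sox18 and Nos3 were named outside the rule, after their values were seen. The authors call the replicates biological, but the labels do not tie them to animals, so p-values measure the spread between these samples, which may in part be technical. Alternatives changed the scaling, the filter, the threshold, the tool, the libraries and a replicate block. Replicate numbers did not mark shared animals or batches in the labels.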

Additional observations from a re-analysis of the deposited data

Results flagged for a closer look

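At 6.5 dpp, frozen replicate 3 lay far from the other 3 libraries for 2 of the 10 genes. Tek was 4.37 CPM in it against 11.1 to 11.6 CPM in the others, and Egfl7 was 28.4 CPM against 19.2 to 19.9 CPM. The test of an extreme value was made in 20 groups of 4 libraries, in which chance gives about 1 in 20. Both genes lay in the library that stood apart over all genes.

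The culture effect differed between stages for several genes by edgeR's test of the difference. From the D4 to the D16 stage it grew by 2.06 for Pecam1, 2.64 for Cdh5, 1.42 for Egfl7 and 1.13 for Robo4 on the log2 scale. From the D4 to the D30 stage it grew by 2.36 for Pecam1, 3.11 for Cdh5, 1.0 for Egfl7, 3.31 for Robo4, 1.87 for Tie1 and 2.11 for Emcn, and changed by -1.14 for Flt1. These differences take in changes both in culture and in vivo. Of the 10 genes, 0 rose from D4 to D30 in culture, while 9 fell from 10.5 to 22.5 dpp in vivo.

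The library labelled 6.5 dpp fresh replicate 1, which was left out of the comparisons except as an alternative, was above the other 4 libraries of 6.5 dpp for 5 genes. It had 66.6 CPM of Pecam1, 128.0 CPM of Cdh5, 46.1 CPM of Tie1, 12.0 CPM of Emcn and 20.5 CPM of Flt1. It was below the other 4 for Aplnr (0.0853 CPM against 7.27 to 10.2 CPM) and Tek (3.05 CPM against 4.37 to 11.6 CPM).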

How the results depend on the processing

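None of the 65 calls of a member reversed under any alternative. With a stricter threshold (a log2 fold change of 2 or more in size with an adjusted p no higher than 0.001), the members called, each with the share of all genes that passed, were 1 for D4 against 10.5 dpp (1.07%), 5 for D16 against 22.5 dpp (1.42%), 6 for D30 against 36.5 dpp (21.3%), 1 for D4 against 6.5 dpp (2.41%), 1 for D16 against D4 (7.86%), 1 for D30 against D4 (13.3%), 1 for 22.5 against 10.5 dpp (18.4%), 1 for 36.5 against 22.5 dpp (9.9%), and 2 and 3 for the differences at the D16 and D30 stages (0.431% and 9.52%). With 6.5 dpp fresh replicate 1 kept in, they were 2 for D4 against 10.5 dpp (2.32% of all genes called), 4 for D4 against 6.5 dpp (5.77%), 0 for D16 against D4 (4.41%), 5 and 3 for the later ages in vivo (56.9% and 39.1%), and 1 for the difference at D16 (1.05%), all shares being below those without it. In fresh tissue alone D4 against 6.5 dpp had 3 (4.99% of all genes). Leaving out each library in turn gave 3 to 7 members for D4 against 10.5 dpp, 6 to 8 for D4 against 6.5 dpp, 9 to 10 for D16 against 22.5 dpp, 8 to 9 for D30 against 36.5 dpp, 1 to 2 for D16 against D4, 6 to 10 for 22.5 against 10.5 dpp, 5 to 7 for 36.5 against 22.5 dpp, 2 to 5 for the difference at D16 and 5 to 7 for that at D30. The cause was not tested. Replicate numbers were not shown to pair the libraries, as same-numbered deviations correlated from -0.564 to 0.661. With the replicate block 7 members were called for D4 against 10.5 dpp, 9 for D16 against 22.5 dpp, 9 for D30 against 36.5 dpp and 7 for D4 against 6.5 dpp, and 3 calls were lost. Without frozen replicate 3 of 6.5 dpp, chosen after seeing the data, 8 members were still called for D4 against 6.5 dpp. Groups of 2 libraries at 36.5 dpp and D16 limit the precision.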
